A study of Homo sapiens with 16 samples.

Results

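The comparison described here sets the dexamethasone (Dex)-resistant multiple myeloma line MM1R against MM1S, its Dex-sensitive counterpart, before any drug was given. It uses the 4 libraries of the series that the labels give as vehicle control, 2 of MM1S and 2 of MM1R, of 16 libraries in all, and every gene of the count table. MM1S is labelled glucocorticoid sensitive and MM1R glucocorticoid resistant, and both are labelled human B lymphoblast lines. The other 12 libraries are duplicates of both lines given TAK-981 at 0.1 μM, Dex at 1 μM or both together for 48 h, and they serve here only as further libraries of the same lines. TAK-981 is an inhibitor of the SUMO E1 enzyme. Each line is 1 cell line, so a difference between the groups is a difference between these lines and cannot be assigned to Dex resistance in general. In bulk RNA, fewer cells that express a gene and less RNA per cell cannot be told apart.

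Glucocorticoids such as Dex enter the cell and bind the glucocorticoid receptor (GR), encoded by NR3C1, which is held ready in the cytoplasm by heat shock proteins and immunophilins and then moves to the nucleus to switch target genes on and off. In lymphoid and plasma cells this ends in growth arrest and apoptosis, which is why Dex is a backbone of myeloma therapy, and loss of the receptor is a known route to resistance. Myeloma cells are malignant plasma cells, antibody-secreting cells with a large endoplasmic reticulum. Cell lines passaged apart can also gain or lose chromosome segments and can switch single genes on or off.

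The 4 vehicle libraries held between 18998753 and 24796539 counts, in a series that ran from 15707587 to 24796539. Genes with at least 1 count numbered 16463 to 16767 per library. The duplicates were kept as separate libraries, since their counts spread beyond sampling noise (chi-square over degrees of freedom 5.18 for MM1S and 3.71 for MM1R). Levels are counts scaled by TMM to a common library size (CPM), given as mean ± SD of n = 2 libraries, and differences are log2 fold changes of MM1R against MM1S, so that positive values are higher in MM1R. A signed value after a gene name is its log2 fold change with vehicle unless a treatment is named. A gene was called at an edgeR adjusted p under 0.05. Of 14215 genes tested, 6850 were called, which is 48.2%. Of these, 3637 were higher in MM1R (25.6% of those tested) and 3213 were lower (22.6%). Scaling by library size alone moved this split to 2942 higher and 3840 lower, from 53.1% to 43.4% higher, while the median over all genes moved from 0.0068 to −0.057 on the log2 scale. At least 2-fold differences were fewer, with 388 called genes higher (2.73%) and 868 lower (6.11%). The labels say duplicate and do not say separate cultures, so the p-values measure the spread between these libraries, which may be technical.

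Both lines carried the transcripts of plasma cells. Of 13 plasma cell markers 12 were tested, 9 were higher in MM1R (75%) and 0 were lower. Of all tested genes 25.6% were higher and 22.6% lower. SDC1, which encodes the surface proteoglycan CD138, was at 498 ± 4.07 CPM in MM1S against 904 ± 25.3 CPM in MM1R, and XBP1, a transcription factor of secretory cells, at 848 ± 23.2 CPM in MM1S against 1291 ± 46.8 CPM in MM1R. TNFRSF17, SLAMF7 and POU2AF1 did not pass the test, with adjusted p-values of 0.0552, 0.126 and 0.53. CD27 had at most 8 counts in any of the 4 libraries. The summed level of this list was 9007 and 8977 CPM in MM1S and 11562 and 11631 CPM in MM1R. Its largest part was JCHAIN, at 3565 ± 93.4 CPM in MM1S against 4718 ± 62.7 CPM in MM1R. Most markers of other cells were near the floor. CD3D, CD5, NKG7, PRF1, S100A8, FCGR3A, HBA1, HBA2, COL1A2, COL3A1, DCN, KRT19, KRT14 and CDH5 were at 0 counts in all 4 libraries. MS4A1 and PAX5 had 2 counts or fewer. The T cell list summed to 30.4 and 27.5 CPM in MM1S and 37.5 and 36.0 CPM in MM1R. Most of that was TRAT1, at 24.4 ± 1.93 CPM in MM1S against 30.3 ± 1.05 CPM in MM1R. The summed levels of the T cell, NK cell, myeloid, erythroid, stromal, endothelial and epithelial lists together stayed below that of the B cell list in each library, whose sum was 54.3 and 51.4 CPM in MM1S and 65.6 and 69.3 CPM in MM1R and came mostly from CR2. Of the myeloid list S100A9 rose, from 10 and 5 counts in MM1S to 155 and 149 in MM1R, while LYZ had at most 1 count. KLRC1 of the NK cell list rose from 4 and 5 to 33 and 28 counts, KRT18 of the epithelial list from 2 and 0 to 9 and 15, and CD3E, CD247 and TRAT1 of the T cell list were also higher (0.55, 1.42 and 0.31). The CD247 call was lost without MM1S replicate 2 (adjusted p = 0.0628) and, at 0.0503, with DESeq2. CD72 of the B cell list and PDGFRB of the stromal list were lower (−1.55 and −1.16). The part of these cells in other results was not tested.

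The transcript of the receptor itself was the most reduced of the genes with a mean log2 CPM of at least 3 over the 16 libraries, a limit that leaves out the genes described below as lost. NR3C1, which the count table places on chromosome 5 from 142657496 to 142815077 on the minus strand (hg19), had 6018 and 5396 counts in MM1S and 482 and 435 in MM1R. Both MM1R libraries lay far below both MM1S libraries, at 279.7 ± 4.35 CPM in MM1S against 18.9 ± 1.41 CPM in MM1R, a residual 6.77% of the MM1S level and 14.8-fold lower (log2 fold change −3.88, SE 0.083, adjusted p = 1.24e-16). In the treated libraries the same difference was −4.04 under TAK-981, −3.78 under Dex and −3.83 under the combination. The nearest genes did not share a difference of this size, with a median of −0.12 over the 6 nearest tested genes. YIPF5 and SPRY4 were at 0.002 and 0.10, NDFIP1 at 0.05, and of the 6 nearest tested genes only ARHGAP26 was called in the same direction, from 34.3 to 22.7 CPM (log2 fold change −0.59, SE 0.087, adjusted p = 2.42e-05).

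Several transcripts of the proteins that hold and fold the receptor were higher in MM1R. Of the 25 genes listed for the receptor complex all were tested, and 12 were higher in MM1R while 4, NR3C1 included, were lower. These are 48% and 16%, beside 25.6% and 22.6% of all tested genes. HSP90AA1, the stress-inducible HSP90 chaperone, rose from 452 and 419 CPM in MM1S to 725 and 759 CPM in MM1R (0.77, adjusted p = 2.97e-08). HSPA8, the constitutive HSP70 that loads the receptor onto HSP90, was higher by 0.67, HSP90AB1 by 0.51, and STIP1, the adaptor that bridges HSP70 and HSP90, by 0.60 on the log2 scale. The immunophilin FKBP4, which favours transport of the receptor to the nucleus, was higher by 0.34, and FKBP5, which restrains it, by 0.46. Of the other 3 genes that were lower, NR3C2, the mineralocorticoid receptor that also binds cortisol, fell from 24.7 and 23.1 CPM in MM1S to 14.7 and 13.1 CPM in MM1R (−0.78, adjusted p = 6.34e-06), HSPA1A was at −1.26 and the coactivator NCOA3 at −0.17. HSPA1A and HSPA1B are near-identical copies whose reads can be split between them, and HSPA1B was at 0.26.

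Of 32 genes that glucocorticoids are known to induce 26 were tested, 6 were higher and 8 lower in MM1R, with a median of −0.12 beside 0.0068 over all genes. These shares, 23.1% and 30.8%, lay near the 25.6% and 22.6% of all tested genes, so the counts say nothing particular of the list. TSC22D3, which encodes the glucocorticoid-induced leucine zipper, had 816 and 866 counts in MM1S and 2058 and 2105 in MM1R (log2 fold change 1.06, SE 0.09, adjusted p = 3.28e-08). CXCR4, the receptor for CXCL12, was higher by 0.84, and FKBP5 by 0.46 from 68.6 and 69 CPM in MM1S to 93 and 96.4 CPM in MM1R. Lower in MM1R were PIK3IP1, a restraint on PI3K (−1.14), KLF9, a Krüppel-like factor (−0.93), TXNIP, an inhibitor of thioredoxin (−0.49), and CDKN1C, the cell cycle inhibitor p57. CDKN1C fell from 8.13 and 8.41 CPM in MM1S to 1.57 and 1.61 CPM in MM1R (log2 fold change −2.37, SE 0.19, adjusted p = 1.44e-08). ZBTB16 had 21 and 30 counts in MM1S and 1 and 3 in MM1R, at the floor used here. DUSP1, SGK1, DDIT4 and ZFP36 did not pass the test, at −0.11, −0.10, −0.07 and 0.01. With Dex in the medium several of these were far lower in MM1R than in MM1S, with FKBP5 at −4.12 and −5.72, TSC22D3 at −2.70 and −2.10, and CXCR4 at −2.42 and −3.49 with Dex alone and with the combination.

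Among genes over the same limit of mean level, the largest increase in MM1R was that of NLRP11, a NOD-like receptor family member. NLRP11 had 165 and 149 counts in MM1S and 8100 and 8072 in MM1R, or 7.7 ± 0.081 CPM in MM1S against 334 ± 1.48 CPM in MM1R, a 43.4-fold difference (log2 fold change 5.44, SE 0.072, adjusted p = 5.76e-20). It remained higher in the treated libraries, by 6.27 under TAK-981, 7.21 under Dex and 8.20 under the combination. NES, the intermediate filament protein nestin, followed at 3.64 ± 0.293 CPM in MM1S against 100.4 ± 2.95 CPM in MM1R, 27.6-fold (4.79). ABCG2, the efflux pump of breast cancer resistance, had 41 and 29 counts in MM1S and 677 and 676 in MM1R, 16.4-fold higher in MM1R (log2 fold change 4.02, SE 0.17, adjusted p = 2.73e-12), and was 3.28 under TAK-981, 4.15 under Dex and 4.08 under the combination in the treated libraries. In each of these genes both MM1R libraries lay above both MM1S libraries, which the rule that picked them required. CX3CR1, the fractalkine receptor, was at 5.59 ± 0.00263 CPM in MM1S against 53.8 ± 2.55 CPM in MM1R (9.63-fold, 3.27), and GPX1, a selenium-dependent peroxidase that clears hydrogen peroxide, at 4.99 ± 0.55 CPM in MM1S against 35.1 ± 1.68 CPM in MM1R (7.04-fold, 2.82). BTK, the kinase below the B cell receptor, was at 12.8 ± 0.428 CPM in MM1S against 68.3 ± 1.27 CPM in MM1R (5.35-fold, adjusted p = 6.99e-14), and SLC38A5, a glutamine transporter, at 131 ± 4.86 CPM in MM1S against 674 ± 24.4 CPM in MM1R (5.15-fold). The remaining genes among the 10 largest increases were SLC43A3, a purine transporter (5.72-fold), FBN2, the microfibril protein fibrillin-2 (5.14-fold), and CD109, a surface protein that binds TGF-β (3.88-fold).

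The 10 largest decreases of the same kind began with NR3C1. ADAM28, a metalloprotease of lymphocytes, was at 73.3 ± 1.28 CPM in MM1S against 7.6 ± 0.0735 CPM in MM1R (9.65-fold lower, log2 fold change −3.27, SE 0.1, adjusted p = 2.49e-14). TSPOAP1 was 8.02-fold lower, CHD3, a chromatin remodeller of the NuRD complex, 7.48-fold, ZNF655 6.97-fold and SCN3A, a sodium channel subunit, 6.8-fold. HLA-DPB1, a β chain of MHC class II, was at 31.1 ± 2.99 CPM in MM1S against 5.28 ± 0.0479 CPM in MM1R (5.88-fold). NT5E, which encodes CD73 and makes adenosine from AMP, was at 24.3 ± 0.627 CPM in MM1S against 4.56 ± 0.254 CPM in MM1R (5.32-fold). XAF1, an interferon-induced antagonist of the apoptosis inhibitor XIAP, was 4.25-fold lower with vehicle (log2 fold change −2.08, SE 0.22, adjusted p = 8.4e-07). SARM1, an NAD-cleaving enzyme, was 4.12-fold lower. In the treated libraries ADAM28 differed by −2.55 under TAK-981, −2.59 under Dex and −1.93 under the combination, NT5E by −2.46 under TAK-981, −2.80 under Dex and −3.01 under the combination and HLA-DPB1 by −2.13 under TAK-981, −0.66 under Dex and −0.05 under the combination.

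Larger differences lay between these genes and those at the floor, in transcripts that 1 line held at a few counts, and the ones given next were picked with their values in view. TKTL1, a transketolase-like enzyme on chromosome X, was at 0.395 ± 0.0937 CPM in MM1S against 55.3 ± 2.25 CPM in MM1R (7.12, adjusted p = 1.42e-15). Lower in MM1R were ANK3, the scaffold ankyrin-G, at 38.3 ± 3.09 CPM in MM1S against 0.599 ± 0.145 CPM in MM1R (−5.99), and GNE, the enzyme that starts sialic acid synthesis, at 28.1 ± 1.87 CPM in MM1S against 0.186 ± 0.0288 CPM in MM1R (−7.20). EYA4, a transcriptional coactivator, was at 24 ± 2.58 CPM in MM1S against 0.888 ± 0.148 CPM in MM1R (−4.75), SPIN3, a reader of histone marks on chromosome X, at 22.1 ± 0.131 CPM in MM1S against 0.33 ± 0.176 CPM in MM1R (−6.04) and PCGF3, a Polycomb subunit on chromosome 4, at 15 ± 0.0554 CPM in MM1S against 0.124 ± 0.117 CPM in MM1R. In each of them both libraries of 1 line lay apart from both of the other.

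Some transcripts were present in 1 line and at the floor in the other. A gene was counted as lost where both vehicle MM1R libraries had 3 counts or fewer and both MM1S libraries had at least 30, and as gained where the lines were reversed. Of 11783 genes with at least 30 counts in both MM1S libraries 16 were lost, and of 11803 with at least 30 counts in both MM1R libraries 20 were gained. This rule fixes the size of the vehicle difference, so the treated libraries, which it does not use, are the check. All 16 lost genes were over the floor in all 6 treated MM1S libraries and 10 of them were at the floor in all 6 treated MM1R libraries. All 20 gained genes were over the floor in all 6 treated MM1R libraries and 12 were at the floor in all 6 treated MM1S libraries. The highest count of any of them in a treated library of the line that lacked it was 18 for the lost and 11 for the gained genes. Folds are given as a ratio of levels with a 95% counting interval, or, where both libraries were at 0, as a lower bound against 3 counts over the group. Intervals and bounds cover counting error only.

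The lost gene of highest level was MBP, which encodes myelin basic protein and the overlapping Golli transcripts of lymphoid cells, on chromosome 18 from 74690789 to 74844774. MBP had 767 and 663 counts in MM1S and 1 and 3 in MM1R, a ratio of 425 (95% interval 165 to 1560), and at most 3 counts in any treated MM1R library against at least 514 in treated MM1S. MGST1, a microsomal glutathione transferase on chromosome 12 from 16500076 to 16530123, had 225 and 172 counts in MM1S and 0 and 0 in MM1R, at least 157-fold lower. PDCD1, which encodes the checkpoint receptor PD-1, on chromosome 2 from 242792033 to 242801058, had 73 and 96 counts in MM1S and 0 and 0 in MM1R, at least 66.9-fold lower, and was at 0 in all 6 treated MM1R libraries. These 3 genes lie on different chromosomes, and each was silent or nearly so in every MM1R library of the series.

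Of the 16 lost genes 4 were zinc finger genes, a family of DNA-binding repressors of which many sit in clusters on chromosome 19. ZNF175, on chromosome 19 from 52074531 to 52092991, had 99 and 106 counts in MM1S and 0 and 0 in MM1R, at least 81.2-fold lower, and ZNF605, on chromosome 12, had 149 and 130 counts in MM1S and 1 and 1 in MM1R, a ratio of 166 (45.4 to 1375). ZNF486 had 67 and 49 counts in MM1S and 1 and 2 in MM1R and ZNF716 had 53 and 53 counts in MM1S and 0 and 1 in MM1R. The others were the surface and secreted proteins CD5L, SDC2 and TMEM136, the serotonin receptor HTR2C, the neuronal filament protein INA, the fucosyltransferase FUT1, the lysosomal transporter SLC46A3, the NOD-like receptor NLRP5 and the phosphoinositide-binding PLEKHA1. Their ratios ran from 22.2 for SDC2 to 135 for INA among genes with at least 1 count in MM1R, and SLC46A3, at 0 in both, was at least 32.1-fold lower.

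The gained gene of highest level was CDKN2A, on chromosome 9 from 21967751 to 21994490 on the minus strand, whose counts merge the transcripts of the CDK inhibitor p16 and of ARF, which restrains MDM2. CDKN2A had 3 and 3 counts in MM1S and 911 and 994 in MM1R, or 39.3 ± 2.34 CPM in MM1R, a ratio of 267 (95% interval 123 to 729). In treated MM1S it had at most 9 counts and in treated MM1R at least 685. PTPRCAP, a partner of the phosphatase CD45, had 2 and 1 counts in MM1S and 395 and 417 in MM1R, a ratio of 228 (77.7 to 1107), and CXCR5, the receptor for CXCL13 that guides B cells into follicles, had 3 and 1 counts in MM1S and 162 and 158 in MM1R, a ratio of 67.4 (26.1 to 249). HSPB8, a small heat shock protein, had 0 and 0 counts in MM1S and 99 and 84 in MM1R, at least 51.4-fold higher. The gained genes also held KL, the ageing-related protein klotho (0 and 0 counts in MM1S and 39 and 45 in MM1R), ADAMTS2, MLC1, PCSK1N, ACTL8, CD163L1, PRR5, TCL6, ITGAD, GABRA3 and PRG2. From CXCR5 down to KL these stood at 6.61 to 1.73 CPM in MM1R.

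Several of the gained genes were cancer-testis genes. These are genes of the germline, many on the X chromosome, that normal somatic tissue keeps silent, in many cases with promoter DNA methylation, and that myeloma often expresses. Of the 20 gained genes 7 lay on the X chromosome, which carried 3.52% of the tested genes. SSX1, on chromosome X from 48114797 to 48126879, had 0 and 0 counts in MM1S and 268 and 262 in MM1R, at least 149-fold higher. CTAG2 (LAGE-1), on chromosome X from 153880246 to 153881853, had 1 and 0 counts in MM1S and 472 and 499 in MM1R, a ratio of 818 (146 to 32326), an interval that wide because MM1S had a single count. MAGEA6, on chromosome X from 151867245 to 151870814, had 0 and 0 counts in MM1S and 178 and 155 in MM1R, at least 93.5-fold higher, MAGEA3 had 0 and 0 counts in MM1S and 30 and 36 in MM1R, at least 18.5-fold higher, and MAGEA10 had 2 and 0 counts in MM1S and 63 and 66 in MM1R, a ratio of 54.3 (14.7 to 453). MAGEA12, which stood over the floor in MM1S, rose from 7 and 7 counts to 532 and 550 (65-fold, adjusted p = 2.49e-14). Reads of MAGEA3, MAGEA6 and MAGEA12, and those of CTAG2 and CTAG1B, come from near-identical copies, so their split between members is uncertain. MAGEA1 was on in both lines, at 54.4 ± 0.256 CPM in MM1S against 83.2 ± 1.12 CPM in MM1R, and PRAME rose from 18.7 and 17.2 CPM in MM1S to 25.4 and 27.8 CPM in MM1R (0.56).

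Of the 52 genes of the cancer-testis list 14 passed the filter on low counts, of which 9 were called higher and 1, SYCP2, a component of the meiotic chromosome axis, was lower (−1.75). Members at the floor in MM1S passed that filter only through MM1R and had to differ, so nothing is read from this count or from the share of the list called. The other 38 did not pass the filter on low counts and 34 of the 52 were at the floor in all 4 libraries, among them SSX2, CTAG1B, MAGEB2, GAGE1 and SYCP1 at 0. Most of the family thus stayed at the floor in both lines.

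Promoters of some of the gained genes are shown as examples that differ in CpG content, the letters CG that DNA methylation acts on. RefSeq gives the 250 bases before the start of each gene on GRCh38.p14, a newer build than the hg19 of the count table, so the positions below do not match those above. Capitals mark each CG, which reads the same on both strands. Of the 27303 promoters listed there, 93.6% hold at least 1 CG in these 250 bases. The MAGEA6 promoter (chrX:152769690-152769939, minus strand in this build) and that of MAGEA3 (chrX:152698544-152698793, plus strand) are identical at all 250 bases and hold 15 CG each, and 42.7% of promoters hold as many or more. That of SSX1 (chrX:48255142-48255391, plus strand) holds 3, and 30.1% of promoters hold as few or fewer. That of CDKN2A (chr9:21995325-21995574, minus strand), a gene with more than 1 start of which this is the one in the table, holds 24, and 23.3% of promoters hold as many or more. That of ZNF175 (chr19:51571033-51571282, plus strand), shown as a lost gene, holds 20, and 32.1% hold as many or more.
MAGEA6 and MAGEA3: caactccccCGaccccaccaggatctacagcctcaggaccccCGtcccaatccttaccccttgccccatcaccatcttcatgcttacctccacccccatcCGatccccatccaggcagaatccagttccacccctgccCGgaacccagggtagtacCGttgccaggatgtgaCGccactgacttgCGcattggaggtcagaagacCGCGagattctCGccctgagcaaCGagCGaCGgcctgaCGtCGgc
SSX1: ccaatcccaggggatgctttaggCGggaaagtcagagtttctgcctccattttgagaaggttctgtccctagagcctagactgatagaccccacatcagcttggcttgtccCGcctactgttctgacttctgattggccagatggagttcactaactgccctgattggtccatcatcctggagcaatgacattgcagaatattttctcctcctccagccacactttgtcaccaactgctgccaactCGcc
CDKN2A: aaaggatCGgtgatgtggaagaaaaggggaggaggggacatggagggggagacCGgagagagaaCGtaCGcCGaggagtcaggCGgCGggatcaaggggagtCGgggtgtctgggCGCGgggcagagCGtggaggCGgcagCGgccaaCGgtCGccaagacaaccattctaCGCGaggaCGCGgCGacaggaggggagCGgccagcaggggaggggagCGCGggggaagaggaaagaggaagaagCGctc
ZNF175: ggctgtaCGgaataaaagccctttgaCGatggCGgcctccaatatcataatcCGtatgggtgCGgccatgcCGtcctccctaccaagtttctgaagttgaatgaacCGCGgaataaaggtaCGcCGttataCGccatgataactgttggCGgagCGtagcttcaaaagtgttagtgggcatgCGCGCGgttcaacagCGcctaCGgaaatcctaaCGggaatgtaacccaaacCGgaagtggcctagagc
The gained genes shown ran from 3 CG for SSX1 to 24 for CDKN2A. They were picked as examples, so this is not the range of all gained genes, and methylation was not measured. A comparison of CpG content over the sets is void, because 70% of the gained and 77.8% of all tested genes had an entry in the promoter table, under the 80% needed.

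**Figure D1:**
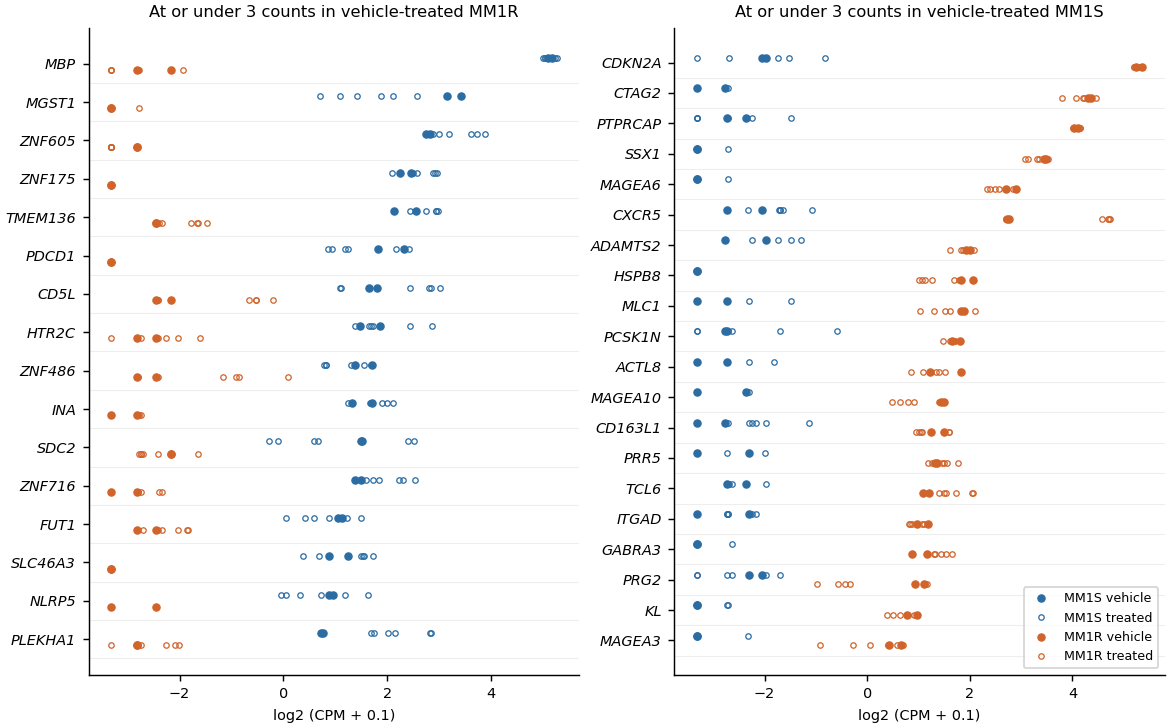
Levels of the 16 lost and 20 gained genes in all 16 libraries, in log2(CPM + 0.1), 1 row per gene, with MM1S and MM1R in separate colours, filled points for vehicle and open points for treated libraries. The points of the lines stay apart in each row, and the treated libraries lie with the vehicle libraries of their own line.

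The neighbours of these genes were examined next. The 3 tested genes on each side of the 20 gained genes gave 120 places. Of these, 54 held a gene called higher (45%), 26 at least 2-fold (21.7%), beside 25.6% and 2.73% of all tested genes. A gene beside several gained genes was counted each time, and gained genes counted as neighbours of each other. Neighbours at the floor in MM1S passed the filter on low counts only through MM1R and had to be higher, so these shares are fixed in part. Around the 16 lost genes 26 of 94 were called lower (27.7%) and 10 at least 2-fold (10.6%), beside 22.6% and 6.11%. Of the 26 places beside gained genes that held a gene at least 2-fold higher, 15 lay beside MAGEA6, MAGEA10, GABRA3 and MAGEA3, which are partly each other's neighbours. The other 16 gained genes, a split made after the data were seen, had 37 of 96 neighbours higher (38.5%) and 11 at least 2-fold (11.5%). Neighbours can be members of the same list or of the same near-identical family, and neighbouring genes are not independent, so these shares are a description. MAGEA10, GABRA3 and MAGEA6 followed each other on chromosome X, from 151301783 to 151870814, with no other gene of at least 30 counts in both MM1R libraries between them. Next to MAGEA6, CSAG1 rose from 5 and 6 counts to 376 and 450 (5.95) and FATE1 went from 0 and 0 to 16 and 14. Beside CDKN2A, its neighbour CDKN2B, the CDK inhibitor p15, rose from 6 and 11 counts to 50 and 43 (log2 fold change 2.19, SE 0.4, adjusted p = 0.000194). The antisense gene CDKN2B-AS1 was higher by 2.72 as well, and since strand use in the counting is not stated its reads cannot be told from those of the genes it overlaps. Further out MTAP was lower, from 55.6 to 46.6 CPM (−0.26), as were KLHL9 (−0.40) and DMRTA1 (−0.58). PTPRCAP had TBC1D10C (2.21) and CARNS1 (1.68) beside it, both also higher.

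Elsewhere the neighbours were mixed, went the other way or mostly shared the direction. Around the 10 largest increases 21 of 60 neighbours were called higher (35%) and 10 lower. Around the 10 largest decreases 20 of 60 were called lower (33.3%) and 11 higher, beside 25.6% higher and 22.6% lower of all tested genes. Beside SLC43A3, 4 of 6 were called higher and 0 lower, with a median of 0.58. ABCG2 was flanked by PKD2, PPM1K and HERC6, which were all lower, at −0.47, −0.53 and −0.35. NLRP11 lay near NLRP5, a lost gene, and near NLRP4 (−0.60, adjusted p = 0.0701). MGST1 had LMO3 lower (−1.45) but STRAP, DERA and EPS8 higher, at 0.34, 0.33 and 0.40. Beside PDCD1, 3 of 4 tested neighbours were called lower and 0 higher, with a median of −0.61. D2HGDH fell there from 9.18 to 2.81 CPM (−1.71) and ING5 by 0.40, while DTYMK was at −0.06. Beside ZNF175, CD33 went from 10 and 9 counts to 1 and 1 while SIGLEC9 went from 3 and 2 to 37 and 23.

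Read by chromosome, the differences were not evenly spread. Chromosome 4 had a median log2 fold change of −0.23, with 53 of its 534 tested genes higher (9.93%) and 223 lower (41.8%). Chromosome 10 had a median of −0.15, with 80 of 530 higher (15.1%) and 175 lower (33%), and chromosome 21 a median of −0.11, with 25 of 147 higher (17%) and 49 lower (33.3%). The other chromosomes lay between −0.05 and 0.09. The same 3 chromosomes were lowest under TAK-981 and under Dex, and under the combination chromosome 13 stood level with chromosome 21, at −0.09. With treatment chromosome 4 was at −0.17, −0.19 and −0.21, chromosome 10 at −0.11 each and chromosome 21 at −0.09, −0.14 and −0.09 under TAK-981, Dex and the combination. In windows of 20 neighbouring tested genes, 77.5% of the 515 windows of chromosome 4 had a median below 0 in all 4 line comparisons, as did 64.8% of 128 on chromosome 21 and 61.1% of 511 on chromosome 10. The next chromosome, 15, had 31.8% and all 13778 windows had 22.6%. Copy number was not measured. Within chromosome 4 the steroid glucuronidation enzyme UGT2B17 was lower (−0.68) and ABCG2 was higher.

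**Figure D2:**
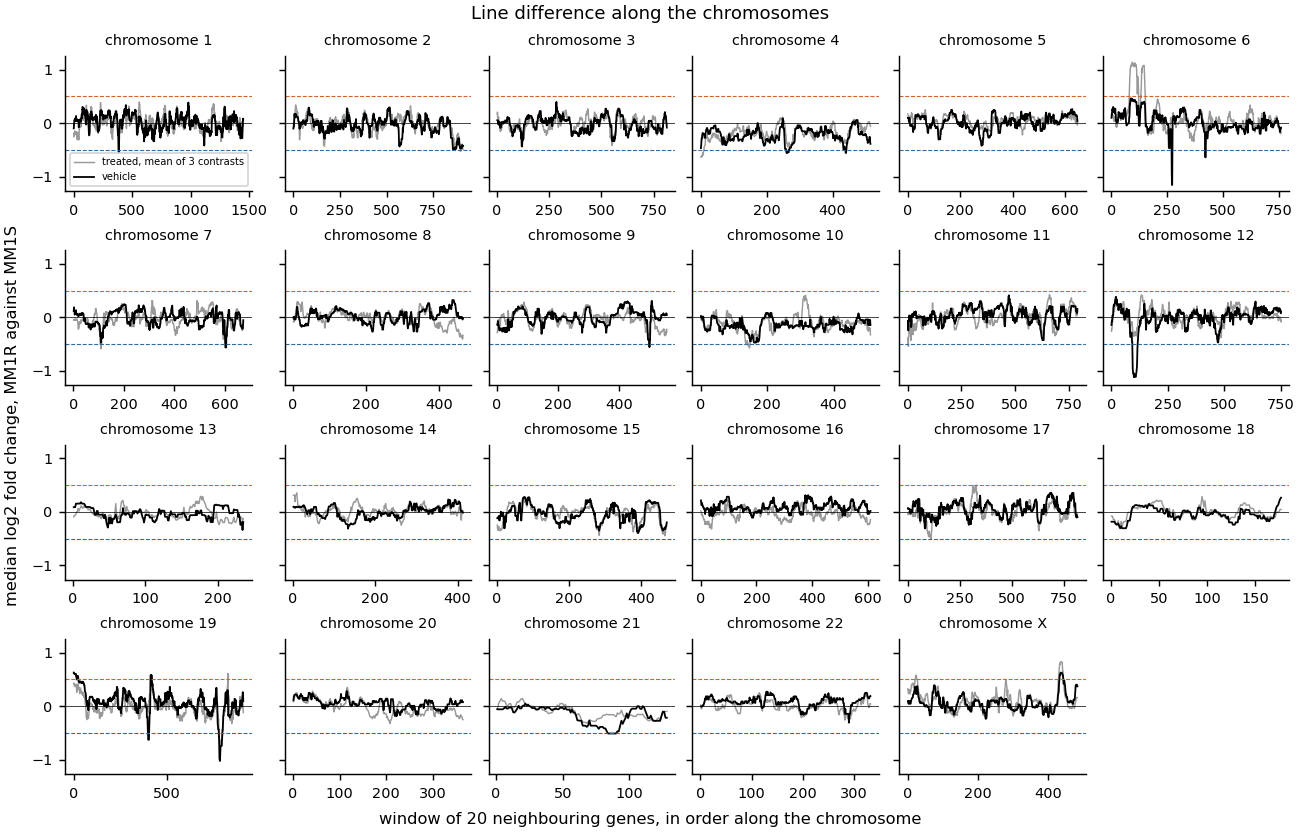
Median difference of MM1R from MM1S in log2, in windows of 20 neighbouring tested genes along each chromosome (horizontal axis, gene order), with vehicle in black and the mean of the 3 treated comparisons in grey, and dashed lines at 0.5 and −0.5. Chromosomes 4, 10 and 21 lie below 0 over most of their length in both.

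Runs of neighbouring genes were read as unions of windows whose median was at least 0.5 or at most −0.5. That choice used the vehicle values, so it fixes the direction and least size of each run's strongest window with vehicle. Counts called within a run are tied to the same choice, beside 25.6% higher and 22.6% lower of all tested genes. The treated comparisons were not used to choose the runs. There were 3 higher runs with 101 genes and 11 lower runs with 294 genes. The 3 higher runs kept their sign in all 3 treated comparisons, which for the run on chromosome X, described below, is fixed in part by the filter on low counts. Of the 11 lower runs 11, 10 and 9 were also below 0 under TAK-981, Dex and the combination. The deepest run was on chromosome 6 from 32158543 to 33172214, the MHC class II region, with 12 of 23 genes lower, 5 higher and a strongest window of −1.16. In the treated comparisons that window was at −0.67 under TAK-981, 0.05 under Dex and 0.70 under the combination. TAP1 and TAP2, the peptide transporter of class I presentation, lie inside it and were higher (0.31 and 0.48). The second was on chromosome 12 from 9436253 to 12944399, a region of C-type lectin and bitter taste receptor genes, with 24 of 42 genes lower and a strongest window of −1.11, which was −0.19, −0.32 and −0.54 with treatment. CLEC7A, the β-glucan receptor dectin-1, fell there from 1612 and 1418 to 717 and 696 counts (log2 fold change −1.35, SE 0.071, adjusted p = 5.74e-11), GABARAPL1, an autophagy protein, was at −1.33 and CDKN1B, the CDK inhibitor p27, at −0.31.

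The third run was on chromosome 19 from 51302286 to 54083523, where a cluster of KRAB zinc finger genes lies, with 22 of 39 genes lower, 3 higher and a strongest window of −1.03. It was also lower with treatment, at −0.69, −1.07 and −0.71. ZNF616, ZNF808, ZNF701 and ZNF480 were at −1.17, −1.21, −1.21 and −1.35, ZNF845 at −2.34, and the lost ZNF175 lies in the same run, whereas ZNF813 was higher (2.36). A second zinc finger cluster on the same chromosome, from 19821281 to 23186010, held 11 lower and 5 higher of 24 genes, with ZNF714 at −2.98, ZNF506 at −2.12 and ZNF626 at 2.21. Its strongest window was −0.63 with vehicle and −0.01, −0.21 and −0.10 with treatment, and −0.47 when only the 4 vehicle libraries were fitted. A higher run, from 21473963 to 30315215, overlaps this cluster, with 13 higher and 4 lower of 25 genes. The strongest window of that higher run was 0.58 with vehicle and 0.29, 0.28 and 0.40 with treatment, so the region held genes of both directions. Members of such clusters share sequence, so their reads may be split unevenly.

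At the end of the short arm of chromosome 19, from 60951 to 1885518, 32 of 45 genes were higher and 0 lower, with a strongest window of 0.63 and 0.38, 0.39 and 0.50 with treatment. BSG, the surface protein basigin, was at 0.62, the E-box factor TCF3 at 0.63, the kinase STK11 at 0.42 and GAMT, of creatine synthesis, at 1.04. On chromosome X from 149106766 to 153151628, 16 of 31 genes were higher and 2 lower, at 0.62 with vehicle and 0.78, 0.87 and 0.83 with treatment. That run holds the gained MAGEA10, GABRA3, MAGEA6 and MAGEA3. Being at the floor in MM1S, these passed the filter on low counts through MM1R and had to be higher. The values of this run are thus fixed in part, with treatment as well. On chromosome 21 from 39601837 to 44496472, 15 of 26 genes were lower and 5 higher, among the lower MX1, MX2 and the cholesterol transporter ABCG1 (−1.53). Chromosome 4 held 2 lower runs. One, from 146681888 to 156728783, had 17 lower and 1 higher of 26 genes, and the other, from 83845756 to 89444952, had 14 lower and 4 higher of 29, with ABCG2 among the higher. A further run on chromosome 6, from 45296054 to 52926600, had 11 lower and 2 higher of 21 genes at −0.64, or −0.39 when only the 4 vehicle libraries were fitted.

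**Figure D3:**
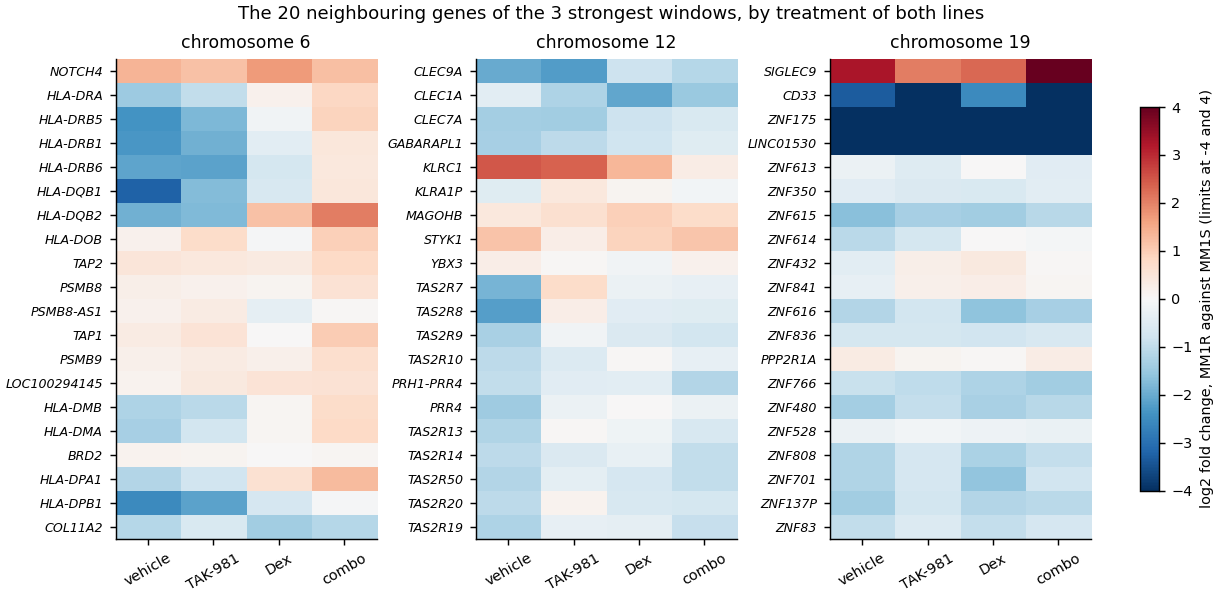
Heat map of the line difference, MM1R against MM1S in log2, for the 20 genes of the strongest windows on chromosomes 6, 12 and 19 (rows, in gene order) under vehicle, TAK-981, Dex and the combination (columns), with the colour scale ending at −4 and 4. The chromosome 19 window stays lower in each column, with medians of −1.03, −0.69, −1.07 and −0.71, and the chromosome 6 window goes from −1.16 to 0.70.

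Most genes of MHC class II, which presents peptides to CD4 T cells, were lower in MM1R. Of 18 listed 15 were tested, 11 were lower, beside 22.6% of all genes, 0 were higher and the median was −1.19. The master activator CIITA fell from 56.9 and 57.2 CPM in MM1S to 26.6 and 25.6 CPM in MM1R (log2 fold change −1.13, SE 0.098, adjusted p = 4.48e-08). HLA-DRA fell from 287 and 259.7 CPM in MM1S to 101 and 97.5 CPM in MM1R (log2 fold change −1.46, SE 0.067, adjusted p = 6.42e-12) and HLA-DRB1 was at −2.34, HLA-DPA1 at −1.19, HLA-DQB1 at −3.23, and the peptide exchange factors HLA-DMA and HLA-DMB at −1.32 and −1.22. Reads of HLA-DRB1 and HLA-DRB5 can be split between these near-identical genes. CD74, the invariant chain, on chromosome 5 and outside the run, fell by a smaller 0.62, from 1081 and 1106 CPM in MM1S to 713 and 713 CPM in MM1R, and the processing protease CTSS by 0.85. The constitutive factors RFX5, RFXAP and RFXANK did not pass the test, at 0.09, −0.04 and 0.09. The median of this list was −0.74 under TAK-981, 0.08 under Dex and 0.73 under the combination. Of 25 genes of class I presentation tested 10 were higher and 4 lower, with a median of 0.15. NLRC5, the class I activator, was higher by 0.89 and CALR by 0.57, while HLA-E was lower (−0.58) and HLA-B and HLA-C were at 0.03 and −0.10 without passing the test.

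Genes of DNA replication were higher in MM1R almost throughout. Of 44 tested 41 were higher and 1 lower, with a median of 0.52, beside 25.6% higher over all genes. RRM2, the ribonucleotide reductase subunit, had 10426 and 9507 counts in MM1S and 24709 and 26294 in MM1R (log2 fold change 1.11, SE 0.09, adjusted p = 3.97e-08). ORC1 of the origin recognition complex was higher by 0.83, TYMS, thymidylate synthase, by 0.74, MCM2 of the replicative helicase by 0.66 and PCNA, the sliding clamp, by 0.58. The 1 lower gene was RFC1 (−0.36), a clamp loader subunit on chromosome 4, and POLA1 and POLE2 did not pass the test (0.09 and 0.36, adjusted p = 0.192 and 0.0532). Among the cell cycle regulators 26 of 46 were higher and 8 lower, with a median of 0.24. MKI67 was higher by 0.64, CDC25A by 0.86, E2F8 by 0.67 and CCNE1 by 0.69, and CCND2, the cyclin D of these MAF-translocated cells, by 0.39 from 2361 and 2236 CPM in MM1S to 2976 and 3058 CPM in MM1R. CCND1 fell from 13.6 and 12.7 CPM in MM1S to 4.67 and 3.42 CPM in MM1R (−1.70) and RB1 was at −0.47. In the treated comparisons the medians were 0.84, 1.35 and 1.84 for replication and 0.61, 1.10 and 1.60 for the cell cycle.

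Inhibitors of the cycle differed in both directions, with CDKN2A, CDKN2B and CDKN1A higher and CDKN1B and CDKN1C lower. CDKN1A, the CDK inhibitor p21, had 1348 and 1181 counts in MM1S and 5764 and 5787 in MM1R, 3.85-fold higher (log2 fold change 1.94, SE 0.068, adjusted p = 1.6e-13), with 2.33 under TAK-981, 2.12 under Dex and 2.81 under the combination in the treated libraries. MDM2, a ubiquitin ligase, rose from 1094 and 1125 CPM in MM1S to 2164 and 2132 CPM in MM1R (log2 fold change 0.95, SE 0.061, adjusted p = 9.46e-10), while its relative MDM4 was lower (−0.56). Of 17 BCL2-family genes tested 2 were higher and 4 lower, beside 25.6% and 22.6% of all tested genes, with BCL2 at −0.64 from 231 and 226 CPM in MM1S to 148 and 145 CPM in MM1R, MCL1 at −0.29 and BMF at −0.38, the effector BAK1 at 0.60 and BCL2L12 at 0.55. BCL2L11, which encodes the Dex effector BIM, was at −0.12 (adjusted p = 0.0919).

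Of 32 transcription factors of plasma cells and B cells 10 were higher and 7 lower (median 0.02), which is 31.2% and 21.9% and near the 25.6% and 22.6% of all tested genes. Single members were IRF4 at 0.25, TCF3 at 0.63, ARID3A at 0.81, BACH2 at −0.90, RUNX1 at −0.77 and ZBTB20 at −1.34. MAF, the oncogene that these lines carry on a translocation, was at 1510.2 ± 62.9 CPM in MM1S against 1307 ± 12.5 CPM in MM1R (−0.21). Of the 15 genes of its programme, MAF included, 8 were higher and 4 lower, 53.3% and 26.7% (median 0.40). Higher were CX3CR1 (3.27), SMARCA1 (2.20), TLR4 (0.57), NUAK1 (0.45), RND3 (0.44), CD9 (0.41), CCR1 (0.40) and CCND2 (0.39). Besides MAF, the lower were DEPTOR, the mTOR inhibitor (−0.66), AHNAK (−0.74) and the integrin ITGA8 (−0.93). ITGB7 was at 0.07 without passing the test. Of 13 immunoglobulin genes and partners tested 7 were higher and 2 lower, 53.8% and 15.4%. CD79A was at 1.80, CD79B at 0.60, SYK at 0.55, BLNK at 0.60 and BTK at 2.42. The lower were FCRLA (−0.65) and RAG1 (−1.12), and RAG1 ranged from −1.50 to −0.57 without any 1 library. The lower calls did not both hold without MM1S replicate 1, without MM1R replicate 1 or without MM1R replicate 2.

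Of 32 surface antigens tested 7 were higher, 4 without MM1S replicate 2, and 14 were lower (median −0.14), 21.9% and 43.8% beside 25.6% and 22.6% of all tested genes. Higher were SDC1, SLAMF6 (0.82) and CD70 (0.76), and lower ILDR1 (−1.24), NCAM1, which encodes CD56 (−1.22), TNFRSF13B, the APRIL receptor TACI (−0.69), and CD44 (−0.56). Adhesion receptors were higher in 7 and lower in 10 of 28 cases. ESAM, an endothelial-type junction protein, rose from 18.8 and 20.1 CPM in MM1S to 62.8 and 65.4 CPM in MM1R (1.72), ICAM1, the ligand of LFA-1, by 1.39 and ITGA6 by 1.06, while PECAM1 (−1.69) and ITGA4, the α chain of VLA-4 (−0.81), were lower. Chemokines, cytokines and their receptors were higher in 15 and lower in 16 of 45 cases. Besides CX3CR1 and CXCR5, LTB, the membrane partner of lymphotoxin, rose from 4 and 4 counts to 59 and 70 (log2 fold change 3.72, SE 0.37, adjusted p = 2.05e-07). IGF1, a growth factor of myeloma, fell by 0.98 and TGFBR2 by 0.88 on the log2 scale. CCL3 was higher (0.68) and its neighbour CCL4 lower (−1.30).

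Of 67 interferon response genes 11 were higher and 19 lower (median −0.04), 16.4% and 28.4% beside 25.6% and 22.6% of all tested genes. GBP2, a guanylate-binding protein, had 207 and 180 counts in MM1S and 21 and 12 in MM1R (log2 fold change −3.79, SE 0.22, adjusted p = 2.51e-10). MX2, a nuclear antiviral GTPase, was at −1.50, SP100 of the nuclear bodies at −0.72 and OAS3, which makes the activator of RNase L, at 0.94. ISG15 and IFIT3 did not pass the test, at 0.08 and −0.26. Of 30 NF-κB genes 5 were higher and 11 lower (median −0.12), with TRAF1 at −1.27 and BIRC3 at −0.66. The higher count was 3 under scaling by library size alone, and also without MM1S replicate 1, without MM1S replicate 2 or without MM1R replicate 2. Of 26 AP-1 and immediate early genes 4 were higher, 2 of them without MM1R replicate 1, and 7 lower, with MYC at 0.26 from 354 and 356 CPM in MM1S to 415 and 433 CPM in MM1R and BTG1 at −0.45. Among 46 genes of RAS-MAPK and cAMP signalling 10 were higher and 17 lower. There the phosphatase DUSP4 was higher by 1.00, and lower were SPRED2 (−0.99) and SPRY1 (−1.21), inhibitors of RAS signalling, RASGRP3, a RAS activator (−0.95), and PDE4D, which degrades cAMP (−1.90).

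Drug transporters and steroid-metabolizing enzymes were higher in 6 and lower in 10 of 29 cases, beside 25.6% and 22.6% of all tested genes. Beside ABCG2, GSTP1, a cytosolic glutathione transferase, rose from 323 and 325 CPM in MM1S to 488 and 506 CPM in MM1R (0.62). ABCB1, the P-glycoprotein pump, went from 9 and 14 counts to 29 and 35 (1.22, adjusted p = 0.00547), a call that did not hold without MM1S replicate 1 (0.87, adjusted p = 0.0917). The lipid transporters ABCA1 (−1.54), ABCA3 (−3.41) and ABCG1 (−1.53) were lower, as were UGT2B17 (−0.68) and HSD17B11, a steroid dehydrogenase (−0.83), and MGST1 was lost.

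For the secretory and metabolic lists the counts stand beside 25.6% of all tested genes called higher and 22.6% called lower. Of 56 genes of the endoplasmic reticulum and its stress response 24 were higher and 9 lower, 42.9% and 16.1% (median 0.15), with DERL3 at 0.85, PDIA4 at 0.66 and SEL1L at −0.56. Of 40 targets of ATF4, the amino acid stress factor, 24 were higher and 2 lower, 60% and 5% (median 0.32), with the amino acid transporter SLC7A5 at 0.65 and ASNS, asparagine synthetase, at 0.46. The 2 lower were VLDLR (−1.66) and SLC38A2 (−0.22), 1 without MM1S replicate 2, without MM1R replicate 1 or without MM1R replicate 2. Oxidative phosphorylation had 29 of 51 higher, 19 without MM1R replicate 2, and 2 lower, 1 without MM1S replicate 1 or without MM1R replicate 2 (median 0.25), with all libraries 56.9% higher and 3.92% lower, with ATP5G1 at 0.67 and NDUFS7 at 0.73. Glycolysis and hypoxia genes had 7 of 39 higher, 4 without MM1S replicate 2, and 15 lower (median −0.18), with all libraries 17.9% higher and 38.5% lower. Among those lower were the hypoxia-induced genes BNIP3L, a mitophagy receptor (−1.44), the demethylase KDM3A (−0.83), P4HA1 (−1.27) and NDRG1 (−1.17), while the enzymes GPI, GAPDH and ENO1 were higher (0.30, 0.26 and 0.34). Sterol and fatty acid synthesis had 16 of 34 higher and 5 lower, 47.1% and 14.7% (median 0.16), with the squalene epoxidase SQLE at 1.13 and FASN at 0.71. The lower count was 2 without MM1S replicate 1 or MM1R replicate 1 and 3 without either other library.

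The remaining lists held genes of both directions, and their counts stand beside the same 25.6% higher and 22.6% lower of all tested genes. WNT and NOTCH genes were higher in 13 and lower in 13 of 36 cases, with NOTCH2 at 0.61 and DKK1, a secreted WNT antagonist, at −1.54, and these counts fell to 7 higher without MM1S replicate 1, 8 higher without MM1R replicate 1, and 8 lower without any 1 of the 4 libraries. Chromatin and DNA methylation genes were higher in 13 and lower in 12 of 47 cases, with KDM6A at 0.73, DNMT1 at 0.33, KDM5B at −1.61 and TET2 at −0.61. Their higher count was 8 under scaling by library size alone and without MM1R replicate 2. The SUMO pathway, the target of TAK-981, had 4 of 28 higher and 4 lower (median −0.03), with SAE1, a subunit of the E1 enzyme, at 0.45 and the protease SENP7 at −0.65. Its lower count was 7 under scaling by library size alone. Ribosomal proteins had 3 of 65 higher and 18 lower (median −0.14). The lower count was 31 under scaling by library size alone and 7 to 10 without any 1 of the 4 libraries, 7 of these without MM1R replicate 2, and RPL22 (−0.62) and RPS15 (0.53) were the members of smallest adjusted p in each direction.

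**Figure D4:**
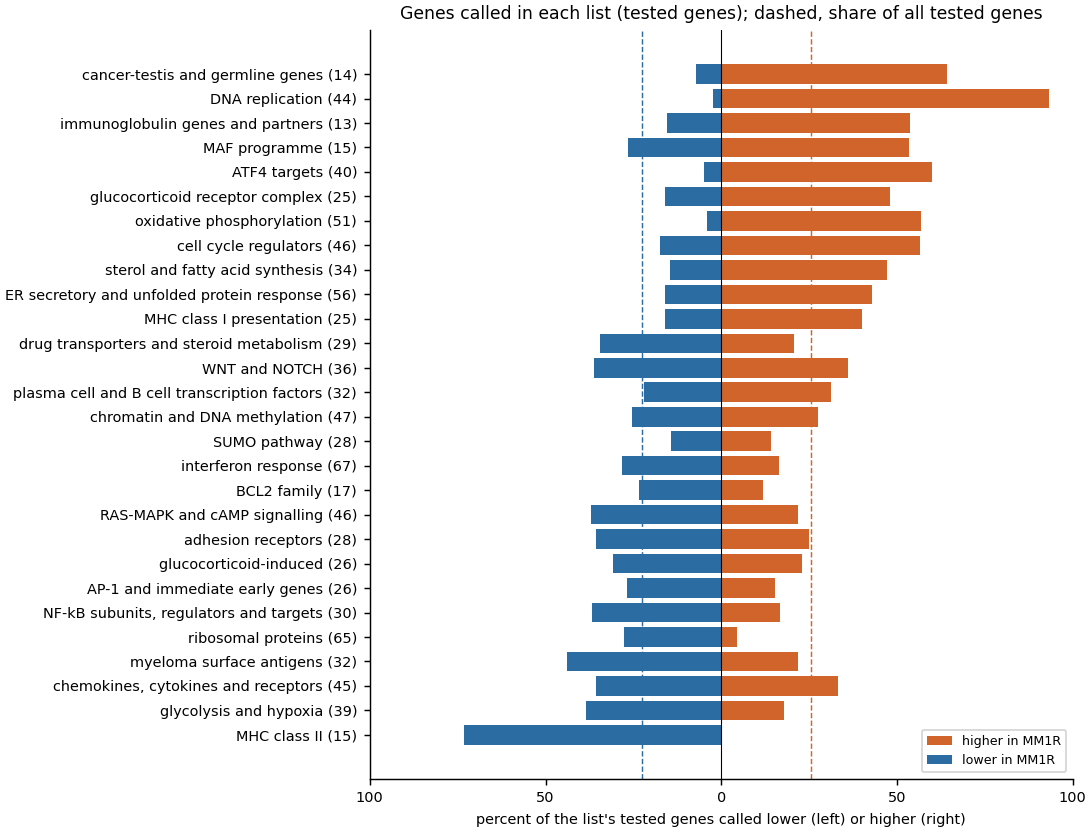
Percent of the tested genes of each list that were called higher (to the right) or lower (to the left) in vehicle-treated MM1R, with dashed lines at 25.6% and 22.6%, the shares over all tested genes. Cancer-testis genes at the floor in MM1S were tested only where MM1R was high, so their bar is fixed in part by the filter. DNA replication stands out on the higher side, with 41 of 44 genes, and MHC class II on the lower side, with 11 of 15.

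Most of the vehicle differences were met again in treated libraries of the same lines, which share no library with the vehicle comparison. Of the 3637 genes higher with vehicle 2304 (63.3%) were also called higher under TAK-981, beside 3106 of all 14215 tested genes. Under Dex 2506 (68.9%) and under the combination 2599 (71.5%) were called higher, beside 4143 and 4258 of all tested genes. Of the 3213 lower genes 2057 (64%), 2110 (65.7%) and 2129 (66.3%) were called lower, beside 3017, 4082 and 3992 of all tested genes. In either direction 43.1%, 57.9% and 58% of tested genes were called under TAK-981, Dex and the combination. Genes called in the opposite direction numbered 18 and 28 under TAK-981, 162 and 191 under Dex and 126 and 203 under the combination, for those higher and lower with vehicle. Of the genes with at least a 2-fold vehicle difference 282 of 388 higher (72.7%) and 434 of 868 lower (50%) were called in the same direction in all 3 treated comparisons. NR3C1, NLRP11, ABCG2, BTK, CDKN1A and GBP2 were among those that kept their direction, whereas the MHC class II genes HLA-DRA and CIITA were lower in MM1R with vehicle and under TAK-981 but at 0.17 and 0.35 with Dex.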

How the data were processed

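Total RNA of MM1S and MM1R cells was depleted of ribosomal RNA and sequenced by the authors, who deposited 1 table of whole-number counts per gene for 16 libraries, with hg19 positions. The submitters' processing notes name bcl2fastq 2.18.0.12, STAR 2.6.0, HTSeq 0.6.0 and edgeR 3.28.1 with no role, and whether counting used strand is not given in the sources used here. Samples were grouped by line and treatment as labelled, 8 groups of 2 libraries.

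All 16 libraries were fitted together with edgeR 4.0.16 in R 4.3.3 (filterByExpr, TMM, quasi-likelihood test, 8 residual degrees of freedom), with the MM1R against MM1S difference as a contrast under each treatment and Benjamini-Hochberg adjustment over 14215 of 23354 genes. The fit borrows its spread from all groups. CPM values use TMM-scaled totals. On simulated counts for 13861 genes 78.8% of 99 genes changed 1.5-fold and 86% of 100 changed 2-fold were recovered, with 5 unchanged genes called. The vehicle libraries held 18998753 to 24796539 counts, and folds of genes at the floor carry counting intervals or bounds.

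Named genes were NR3C1, the 10 largest changes in each direction with mean log2 CPM of at least 3 and no overlap between lines, the 8 lost and 8 gained genes of highest level, up to 2 genes in each direction per list at 2-fold or more, and the 3 genes of highest level in each of the 6 most extreme runs. Others, including list members named for their role, were picked with their values in view, and some genes under the rule are not named. The members and lists were chosen with earlier results of these data known. Alternatives were RLE or library-size scaling, no filter on low counts, DESeq2 1.42.0, the 4 vehicle libraries alone, a replicate block, each vehicle library left out, and other floors, minimums, windows and limits. Genome sequence of hg19 was not used here. Promoters came from RefSeq on GRCh38.p14. Some genes and 1 gene list are not reported here.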

Additional observations from a re-analysis of the deposited data

Results flagged for a closer look

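The following genes had log2 fold changes of opposite sign with vehicle and with a treatment. The 2 libraries of 1 line did not overlap those of the other in either comparison. Some of these values are very small, and not every one is given with its call. The difference between the treatments was not tested, and each value is a log2 fold change of MM1R against MM1S. XAF1 was at −2.08 with vehicle, 0.357 under TAK-981 and 0.089 under the combination, where both lines stood at 88.6 to 141.2 CPM. TSC22D3 was at 1.06 with vehicle, −2.70 under Dex and −2.10 under the combination. Under Dex its levels were 501 and 584 CPM in MM1S and 79.0 and 87.5 CPM in MM1R. HLA-DRA was at −1.46 with vehicle, 0.174 under Dex and 0.823 under the combination.

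PECAM1 was at −1.69 with vehicle, 1.87 under Dex and 0.658 under the combination. Its levels under Dex were low, at 0.363 and 0.756 CPM in MM1S against 1.79 and 2.36 CPM in MM1R. NCAM1 was at −1.22 with vehicle and 0.397 under Dex, and PDGFRB, a receptor of stromal cells with at most 58 counts in a vehicle library, at −1.16 and 1.40. CCL4 was at −1.30 with vehicle and 0.738 under the combination, and CDKN1B at −0.31 and 0.179. ZNF841 was at −0.31 with vehicle, 0.211 under TAK-981 and 0.0781 under the combination, and its vehicle call was lost without MM1S replicate 1 (adjusted p = 0.142) or MM1R replicate 2 (adjusted p = 0.113). TRAM2 was at −0.03 with vehicle, a very small value, and 0.292 under the combination.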

How the results depend on the processing

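The number of genes called stayed within 1.5 times the 6850 reported, at 6924 with RLE scaling, 6782 by library size alone, 7023 without a filter on low counts, 6090 with DESeq2 and 8550 with the 4 vehicle libraries alone, and from 4998 to 5509 without any 1 library. It was 1256 (388 higher, 868 lower) with a difference of 2-fold or more required. Lost and gained genes numbered 46 and 59 at a minimum of 10 counts in the other line, 3 and 6 at 100 counts, and 4 and 6 at a floor of 0 counts. Higher and lower runs numbered 23 and 50 with 10 genes a window, 1 and 2 with 40, 0 and 3 at a limit of 1, and 12 and 24 without a filter, and lower runs numbered 18 by library size alone. The cause of the last 2 changes, without a filter and by library size, was not tested. With only the 4 vehicle libraries, the medians relative to all genes were 0.14 for sterol synthesis (0.157 without a filter, 0.149 as reported), 3.16 for cancer-testis genes (1.14 as reported), −0.15 for ribosomal proteins (−0.142 as reported), −0.385 for the chromosome 6 window from RUNX2 and −0.471 for the chromosome 19 window from ZNF14, and the cause was not tested. ZNF737, at −0.09 and not called, ranged from −0.204 to 0.0469 without any 1 library, positive without MM1S replicate 1 and, at 0.000679, without MM1R replicate 2.

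Without any 1 vehicle library, which leaves 1 library in that group with its spread taken from the other groups, medians relative to all genes ranged from 0.18 to 0.23 for the receptor complex, −0.171 to −0.00904 for the BCL2 family, −0.222 to −0.147 for surface antigens, −0.148 to −0.0699 for adhesion receptors, −0.167 to −0.0582 for chemokines, 0.103 to 0.173 for MHC class I, −0.182 to −0.0916 for NF-κB, −0.184 to −0.052 for AP-1, −0.109 to −0.0807 for RAS-MAPK, −0.0651 to 0.0651 for drug transporters and 0.211 to 0.312 for the cell cycle. They ranged from 0.143 to 0.168 for the endoplasmic reticulum, 0.24 to 0.369 for ATF4 targets, −0.185 to −0.109 for glycolysis and hypoxia, 0.143 to 0.164 for sterol synthesis, −0.105 to 0.107 for WNT and NOTCH, −0.0283 to 0.0376 for chromatin, −0.0325 to −0.00527 for SUMO, 0.95 to 1.44 for cancer-testis genes, 0.368 to 0.471 for immunoglobulin partners, −0.158 to −0.128 for ribosomal proteins, 0.214 to 0.267 for oxidative phosphorylation and −0.158 to −0.113 for chromosome 10. The windows ranged from −1.22 to −1.08 on chromosome 6, −1.26 to −0.99 on chromosome 12 and −0.659 to −0.49 for the chromosome 19 window from ZNF14. Of the medians given here those of drug transporters, WNT and NOTCH, and chromatin crossed 0, as did that of the plasma cell and B cell transcription factors, from −0.0195 to 0.0245.

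Same-numbered libraries share only a number. The difference of replicate 1 and 2 correlated between the lines by −0.0044 over genes with vehicle and by 0.058, 0.186 and 0.0122 with the treatments. With a replicate block 7727 genes were called, 4108 higher and 3619 lower, 6844 of them among the 6850 reported. Of 163 results on single genes and list counts, 145 to 150 kept direction and call without any 1 library, 155 with DESeq2 and 163 with RLE scaling. Among the genes under the naming rule, IL7R was at 0.631 (adjusted p = 0.809) without MM1R replicate 2 and RAG1 at −0.568 (adjusted p = 0.437) without MM1S replicate 1. Depth limits the genes at the floor, whose folds are bounds.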
